A study of Mus musculus with 6 samples.

Results

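A set of 7 cardiomyocyte calcium handling genes were followed through the anti-m6A libraries of fetal mouse hearts: Cacna1c, Ryr2, Casq2, Atp2a2, Pln, Slc8a1 and Camk2d. They were chosen by name and taken from the deposited tables by 7 Ensembl gene IDs, which are 7 of the 48505 genes in those tables. The symbols come from the list of members itself, since neither the files nor the reference tables used here pair Ensembl IDs with symbols. The groups were hearts of fetuses whose dams had inhaled nano-TiO2 (titanium dioxide nanoparticles) and hearts of fetuses whose dams had breathed filtered air (sham), with 3 libraries each. All fetuses were FVB/NJ wild type, and each library is a pool of fetal hearts of both sexes, so that single fetuses, sexes and litters cannot be separated. Dams were 10 weeks old, and exposure started on gestational day 5, with a target of 12 mg/m3 for 360 minutes a day on 6 days within a span of 8 days. Hearts were collected on gestational day 15. The labels do not say how many hearts or litters entered a pool, so p-values measure the spread between these pooled libraries.

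In a cardiomyocyte each beat begins when the L-type calcium channel, whose pore is Cacna1c, lets in a small amount of calcium. That calcium opens Ryr2, the release channel of the sarcoplasmic reticulum, which empties a store buffered by Casq2. The muscle relaxes as the pump Atp2a2 (SERCA2), held back by its small inhibitor Pln (phospholamban), refills the store and as the exchanger Slc8a1 (NCX1) moves calcium out of the cell. Camk2d is the main cardiac isoform of the calcium/calmodulin-dependent kinase, which phosphorylates Ryr2, Pln and the L-type channel. N6-methyladenosine (m6A) is a mark on adenosines within RNA, and an antibody against it pulls down the marked fragments.

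The level of a gene in such an immunoprecipitate (IP) depends on how much of its RNA is present as well as on how much of that RNA carries the mark. In hearts, fewer cells of a type and less RNA per cell cannot be told apart either. The tables divide each gene into windows that start every 25 nucleotides after the first step, which is 25 in 52.0% of genes and differs in the others, and window values were summed per gene. The first table holds normalized reads, called the IP level here. The second, called the adjusted level, divides the IP level by 1 factor per gene and library, whose origin the labels do not state.

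Reads were recovered from the normalized values and summed over the windows of all genes. They numbered 20205024 to 28251706 in nano-TiO2 libraries and 22151447 to 31523675 in sham libraries, and the sequenced totals are not among these values. The 4 genes with the most reads took 8.03% to 18.0% of the reads in nano-TiO2 libraries and 20.6% to 35.2% in sham libraries, and these ranges do not overlap. The markers that define cardiomyocytes and other cell types could not be matched to IDs, so the cell types in the hearts were not checked here. The same holds for other genes of the calcium pathway.

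Of the 7 genes, 5 had a higher IP level after nano-TiO2: Ryr2, Camk2d, Cacna1c, Slc8a1 and Atp2a2, by 1.88-fold to 2.87-fold. Pln and Casq2 did not pass the test. Across all 18566 genes tested with limma at an adjusted p of 0.05, 24.0% were higher and 12.0% were lower in nano-TiO2 hearts. The members therefore counted 5 higher and 0 lower. Their median log2 change was 1.05, against a median of 0.13 over all genes tested.

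Cacna1c (ENSMUSG00000051331), the pore through which calcium enters, had the lowest level per window of the 7. Its IP level was 908, 878 and 961 normalized reads in nano-TiO2 libraries, against 384, 407 and 465 in sham libraries. Every nano-TiO2 library was higher than every sham library, and the values lay close together within each group. The log2 change was 1.13 ± 0.14 (SE, n = 3 per group; adjusted p = 0.00098, limma), a 2.19-fold rise. It rests on 814 to 1193 recovered reads per nano-TiO2 library and on 344 to 427 per sham library.

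Ryr2 (ENSMUSG00000021313), the release channel, had the largest change in IP level of the 7. It had 2909, 1763 and 3191 normalized reads in nano-TiO2 libraries, against 766, 880 and 1020 in sham libraries. The groups do not overlap, and nano-TiO2 replicate 2 was the lowest of its group. The log2 change was 1.52 ± 0.23 (SE, n = 3 per group; adjusted p = 0.0018, limma), or 2.87-fold.

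Casq2 (ENSMUSG00000027861), the calcium buffer within the store, had 16035, 8383 and 14842 normalized reads in nano-TiO2 libraries, against 6953, 9802 and 15955 in sham libraries. The groups overlap widely: nano-TiO2 replicate 2 lay below 2 of the sham libraries, and sham replicate 3 was almost as high as the highest nano-TiO2 library. The log2 difference was 0.29 ± 0.33 (SE, n = 3 per group; adjusted p = 0.52, limma), with a 95% interval of -0.45 to 1.04. That interval holds 0 and also values above 1. With every library scaled to the same total the difference was 0.79 and passed the test (adjusted p = 0.042, limma), a setting in which 43.2% of all genes were higher and 0.906% lower.

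Atp2a2 (ENSMUSG00000029467), the pump that refills the store, had 14056, 10619 and 17264 normalized reads in nano-TiO2 libraries, against 6581, 7879 and 7444 in sham libraries. Its lowest nano-TiO2 library was above the highest sham library. The log2 change was 0.91 ± 0.19 (SE, n = 3 per group; adjusted p = 0.0061, limma), a 1.88-fold rise.

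Pln (ENSMUSG00000038583), the inhibitor of that pump, had 21522, 11875 and 19247 normalized reads in nano-TiO2 libraries, against 13256, 17804 and 25787 in sham libraries. The lowest value was that of nano-TiO2 replicate 2 and the highest that of sham replicate 3, and the groups overlap. The log2 difference was -0.10 ± 0.28 (SE, n = 3 per group; adjusted p = 0.81, limma), with a 95% interval of -0.75 to 0.54. Its sign depends on the scaling, since it was 0.39 with equal totals and 0.41 after quantile normalization.

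Slc8a1 (ENSMUSG00000054640), the exchanger that carries calcium out, had 7147, 4643 and 5939 normalized reads in nano-TiO2 libraries, against 2254, 3085 and 3194 in sham libraries. The groups do not overlap. The log2 change was 1.05 ± 0.20 (SE, n = 3 per group; adjusted p = 0.0044, limma), or 2.07-fold.

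Camk2d (ENSMUSG00000053819), the kinase, had 2998, 2156 and 2519 normalized reads in nano-TiO2 libraries, against 952, 1015 and 1203 in sham libraries. Again every nano-TiO2 library was above every sham library. The log2 change was 1.27 ± 0.17 (SE, n = 3 per group; adjusted p = 0.0011, limma), or 2.41-fold. The groups thus failed to overlap for 5 of the 7 members, while 49.5% of all genes tested had groups that do not overlap.

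**Figure D1:**
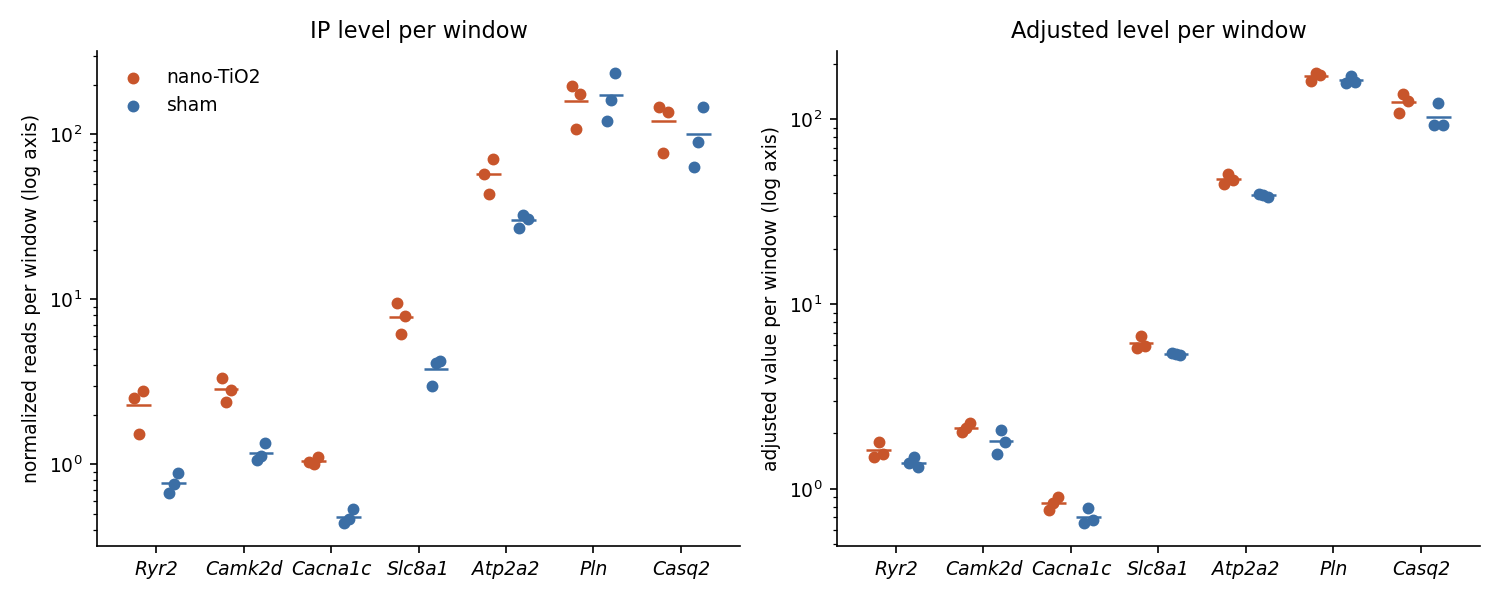
IP level (left) and adjusted level (right) of the 7 calcium handling genes, as value per window on a log axis; each point is 1 library, nano-TiO2 left of sham, and bars are group means (n = 3 each). In the left panel Ryr2, Camk2d, Cacna1c, Slc8a1 and Atp2a2 have all nano-TiO2 points above all sham points, and Pln and Casq2 do not; in the right panel the groups lie closer together.

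The share of reads taken by the 4 genes with the most reads differed between the groups, so the test was repeated with a scaling that leaves out those genes. That scaling also differs from the deposited one in kind, so the part of those genes in these results was not tested. With equal totals outside them, the same 5 members passed the test, with log2 changes of 1.79 for Ryr2, 1.54 for Camk2d, 1.40 for Cacna1c, 1.32 for Slc8a1 and 1.18 for Atp2a2 (adjusted p = 0.00019 to 0.00092, limma). That scaling called 34.0% of all genes higher and 5.43% lower, and it moved the median of all genes to 0.40 and the share of calls that were higher to 86.2%, against 66.7% with the deposited scaling. With equal totals that include those genes the median was 0.62, and 97.9% of the calls were higher. Quantile normalization gave 52.3%, and a correction for gene length gave 47.2%.

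The 5 genes that rose are also the 5 longest. Over all genes tested, the change in IP level went up with the number of windows per gene. In the 20% of genes with the most windows (266 to 4927), the median log2 change was 0.81, 55.4% were higher and 1.10% were lower. Ryr2 (1151 windows), Camk2d (899), Cacna1c (874) and Slc8a1 (752) belong to it, and their changes of 1.05 to 1.52 lie above that median. The quartiles of the class were 0.31 and 1.24. Slc8a1 (1.05) and Cacna1c (1.13) lie between these quartiles, and Camk2d (1.27) and Ryr2 (1.52) lie above them. The class is wide, so its median is not that of genes matched to the members in length.

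Atp2a2, with 243 windows, lies in the class below (172 to 265 windows), where the median was 0.34 and 31.5% were higher. Pln, with 110 windows, lies in the class of 110 to 171, where the median was 0.12 and 19.2% were higher. Casq2, with 109, lies in the class of 53 to 109, where the median was -0.094 and 9.31% were higher. In the class with the fewest windows (8 to 52) the median was -0.48, and 34.0% of its genes were lower. Once the trend of change on the number of windows was removed from each library, 0 of the 7 members passed the test, while 11.4% of all genes were higher and 12.8% lower. The log2 difference was then 0.44 for Atp2a2 (adjusted p = 0.14, limma), 0.19 for Ryr2 and 0.043 for Camk2d, and it was below 0 for Slc8a1 (-0.088) and Cacna1c (-0.082). The cause of the trend with length was not tested.

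**Figure D2:**
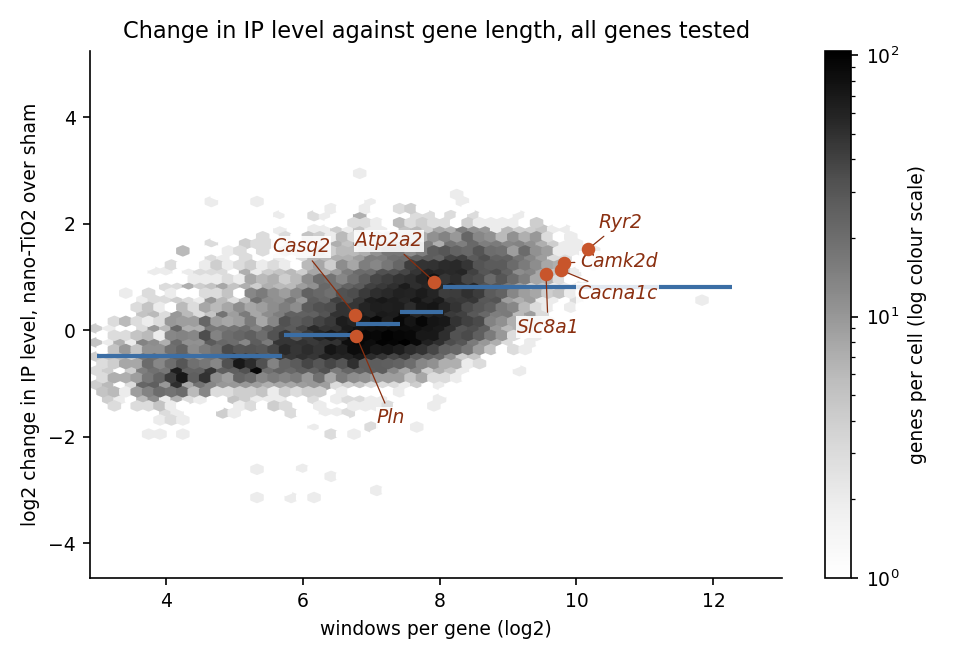
Log2 change in IP level (nano-TiO2 over sham) of each of the 18566 genes tested against its number of windows (log2 axis); grey cells count genes, blue lines are medians in 5 equal classes of genes by number of windows, and red points are the 7 calcium handling genes. The medians climb between -0.48 in the class with the fewest windows and 0.81 in that with the most, where Ryr2, Camk2d, Cacna1c and Slc8a1 lie.

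Per window the 7 genes kept 1 order. Averaged over the 6 libraries, the IP level per window was 166 normalized reads for Pln, 110 for Casq2, 43.8 for Atp2a2, 5.82 for Slc8a1, 2.01 for Camk2d, 1.52 for Ryr2 and 0.763 for Cacna1c. Each gene was above the next in 6 of 6 libraries. The ranges over libraries overlap between all neighbours in this order except Atp2a2 and Slc8a1. Pln, Casq2 and Atp2a2 thus stood above Slc8a1, Camk2d, Ryr2 and Cacna1c. These means count windows without a read, which were most frequent in Cacna1c. With libraries thinned to equal reads, 34.2% of its windows held a read in nano-TiO2 and 16.7% in sham libraries. For Pln, the highest of the 7, these were 96.1% and 95.8%.

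As 1 sum, the 7 genes made up 2909, 2027 and 2811 RPM (reads scaled to a common library total) in nano-TiO2 libraries, against 1122, 1184 and 1839 in sham libraries. The means were 2582 ± 483 in nano-TiO2 and 1382 ± 398 in sham libraries (SD, n = 3 each), a 1.87-fold difference with an exact two-sided permutation p of 0.1, the smallest that 3 against 3 allows. On the deposited scaling the groups overlap and the ratio was 1.34 (exact permutation p = 0.3). Per total outside the 4 genes with the most reads the 7 genes made up 3547, 2204 and 3300 RPM in nano-TiO2 libraries, against 1438, 1828 and 2317 in sham libraries. The groups overlap there too, with a ratio of 1.62 (exact permutation p = 0.2). Pln, Casq2 and Atp2a2 carry most of this sum.

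In adjusted level the groups lay closer together, and 0 of the 7 genes passed the test. In the same test 0% of the 19361 genes were called by limma, although 3592 genes (18.6%) and 3 members (Atp2a2, Slc8a1 and Casq2) had an unadjusted p under 0.05. All 7 log2 differences were above 0, with a median of 0.25, against 0.17 over all genes tested. TMM scaling (trimmed mean of M values) took the median of all genes to 0.0057 and those of the members to -0.083 for Pln and 0.036 to 0.13 for the rest.

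Atp2a2 had the smallest adjusted p among the 7. Its adjusted value was 10921, 12239 and 11365 in nano-TiO2 libraries, against 9594, 9454 and 9231 in sham libraries, which differ by little within each group. The log2 difference was 0.29 ± 0.07 (SE, n = 3 per group; adjusted p = 0.18, limma), or 1.22-fold. It passed the test when sham replicate 2 was left out (adjusted p = 0.040, limma), as did Casq2 (adjusted p = 0.037), while 8.32% of all genes were then higher and 1.38% lower. With libraries weighted by their quality Atp2a2, Casq2, Camk2d and Cacna1c passed, while 22.5% of all genes were higher and 3.43% lower.

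Ryr2 had adjusted values of 1723, 2072 and 1777 in nano-TiO2 libraries, against 1581, 1703 and 1505 in sham libraries, with a log2 difference of 0.22 (adjusted p = 0.30, limma). Slc8a1 had 4371, 5062 and 4447 in nano-TiO2 libraries, against 4071, 4028 and 3986 in sham libraries, a log2 difference of 0.20 (adjusted p = 0.25, limma). The groups do not overlap for Atp2a2, Ryr2 and Slc8a1, that is for 3 of 7 members, and for 22.4% of all genes tested.

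Casq2 had 11747, 14931 and 13718 in nano-TiO2 libraries, against 10128, 13397 and 10135 in sham libraries (log2 difference 0.27). Camk2d had 1829, 1924 and 2038 in nano-TiO2 libraries, against 1384, 1867 and 1621 in sham libraries (0.26). Cacna1c had 675, 731 and 787 in nano-TiO2 libraries, against 570, 686 and 596 in sham libraries (0.25). In each of these 3 genes sham replicate 2 reached into the nano-TiO2 range. Pln, with 17861, 19552 and 19229 in nano-TiO2 libraries and 17283, 18943 and 17426 in sham libraries, differed least (0.078).

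**Figure D3:**
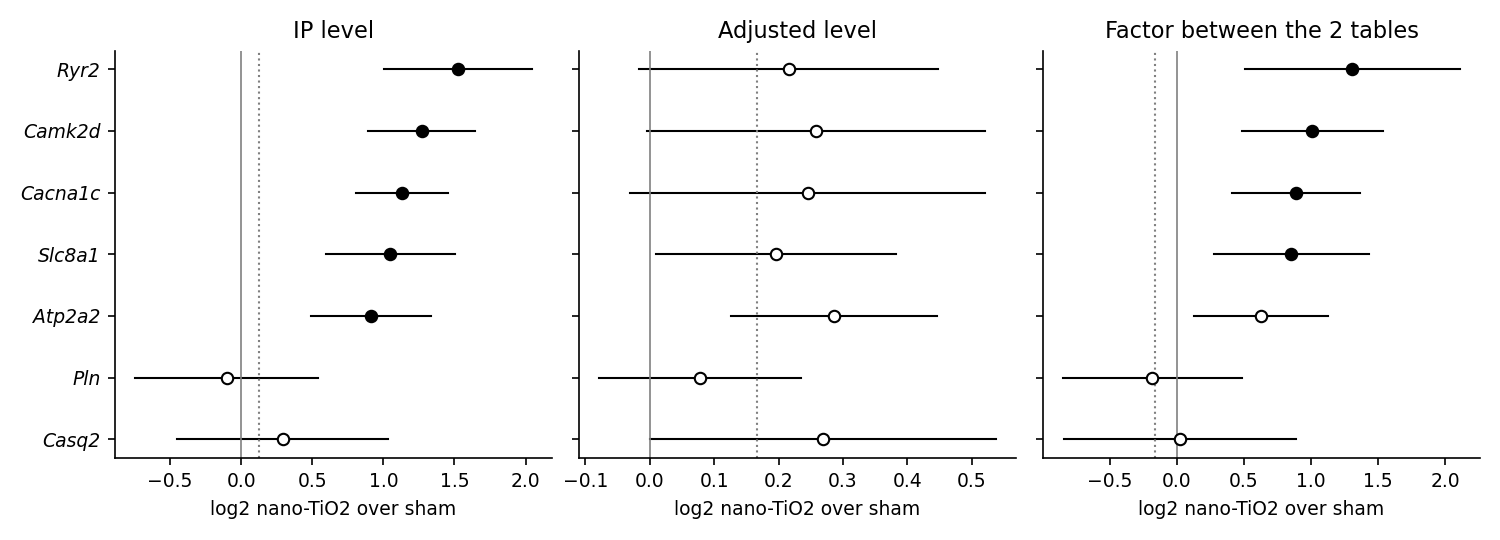
Log2 difference (nano-TiO2 over sham) of the 7 genes in IP level, adjusted level and the factor between the tables, with 95% intervals (n = 3 per group); filled points passed limma at an adjusted p of 0.05, dotted lines are the medians of all genes, and the 3 axes have different ranges. Filled points are 5 in IP level, 0 in adjusted level and 4 in the factor.

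The factor that links both tables carried most of the difference for the long members. For Ryr2 it was 1.69, 0.851 and 1.80 in nano-TiO2 libraries, against 0.485, 0.516 and 0.678 in sham libraries, a log2 difference of 1.31 ± 0.36 (SE, n = 3 per group; adjusted p = 0.029, limma). Camk2d (1.01), Cacna1c (0.89) and Slc8a1 (0.85) were also higher, with adjusted p-values of 0.025 to 0.035 (limma). These are 4 of 7 members, while 13.3% of the 13812 genes with a usable factor were higher and the median of all was -0.16. That share was not split by gene length.

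Atp2a2 missed the threshold with a log2 difference of 0.63 (adjusted p = 0.054, limma). Casq2 (0.023) and Pln (-0.18) were near 0. The 4 calls were not stable: with nano-TiO2 replicate 1 left out, or with nano-TiO2 replicate 3 left out, 0 members passed, and with sham replicate 2 left out 1 passed. The share of all genes called in these settings was not recorded. The log2 differences stayed above 0 when each library was left out, at 1.11 to 1.65 for Ryr2, 0.85 to 1.13 for Camk2d, 0.79 to 0.99 for Cacna1c and 0.67 to 1.08 for Slc8a1.

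Along the genes, windows with a mean IP level of at least 10 were tested one by one. Of 557 such windows in 6 members, 167 were higher and 0 were lower in nano-TiO2 hearts, which is 30.0% of them. Over all 250317 windows tested with limma, 3.88% were higher and 7.32% were lower. These shares cover genes of all lengths, and windows of genes as long as the members were not set apart. Windows entered by their mean over all 6 libraries, so a window could enter through its nano-TiO2 values alone. The calls fell in Atp2a2 (94 of 154 windows), Slc8a1 (35 of 134), Camk2d (26 of 50) and Ryr2 (12 of 26). Casq2 (98 windows) and Pln (95 windows) had none, and neighbouring windows of a gene are not independent measurements. The number fell to 33 without nano-TiO2 replicate 3, to 62 without nano-TiO2 replicate 1 and to 74 without sham replicate 1. The share of all windows called with a library left out was not recorded, so the fall cannot be read as a trait of the members.

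Cacna1c had no window with a mean of 10, so neighbouring windows were summed in bins of 10. In these bins it was higher in 12 of 19, Ryr2 in 40 of 55, Slc8a1 in 41 of 69, Camk2d in 22 of 32 and Atp2a2 in 18 of 22. Over all bins tested, in genes of all lengths, 18.3% were higher. A bin entered at a mean of 10 over all 6 libraries, so it could enter through its nano-TiO2 values alone. The Cacna1c bin at 1265 had 33.5, 19.0 and 24.2 normalized reads in nano-TiO2 libraries, against 8.10, 3.29 and 1.35 in sham libraries. The counts of higher bins are thus not free of how bins were chosen. None of the 11 bins of Pln or the 11 bins of Casq2 passed.

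Adjusted windows gave 0 calls among 554 windows of the members with limma, where 0.00316% of all windows passed and 157 of the members' windows had an unadjusted p under 0.05, as had 9.71% of all windows. Of those 157, 73 were among the 95 tested windows of Pln. In bins of 10 windows 1 passed, while 0.0970% of all bins did: the bin of Pln that begins at position 1001 had adjusted values of 971, 1039 and 875 in nano-TiO2 libraries, against 468, 592 and 659 in sham libraries (log2 difference 0.76, adjusted p = 0.048, limma).

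Where the signal lies within each gene was compared next, since a share of a gene's own signal is free of that gene's factor and of library scaling. Positions count windows in the order of the table, and which end of the RNA comes first was not settled.

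For this the windows of each gene were cut into 10 stretches of equal number. Ryr2 had 36.2% of its IP signal in its first stretch (starts 1 to 2891) in nano-TiO2 libraries and 32.6% in sham libraries, with its 10 highest windows between 166 and 591. Atp2a2 had 33.0% in its first stretch (starts 1 to 607) in nano-TiO2 libraries and 36.4% in sham libraries. Camk2d had its peak near the other end (starts 18001 to 20226), with 34.1% in nano-TiO2 libraries and 32.0% in sham libraries. Groups overlap in each of these stretches. Among all 10 stretches of a gene they do not overlap in 3 of Ryr2, in 2 of Atp2a2 and in 1 of Camk2d, and over all genes tested for shares they do not overlap in 14.9% of stretches.

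Slc8a1 had its highest windows between 12733 and 13183, and groups overlap in all 10 of its stretches. Its single highest window, at 12858, had 127, 74.5 and 144 normalized reads in nano-TiO2 libraries, against 49.5, 46.0 and 60.8 in sham libraries. Casq2 had the flattest profile, with 5.51% to 16.1% of its signal in each stretch on average. Its groups also overlap in all 10.

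Pln had groups that do not overlap in 9 of its 10 stretches, against 14.9% of stretches over all genes tested for shares. Its peak, in windows that start between 551 and 801, held 26.2%, 28.5% and 28.9% of the gene's signal in nano-TiO2 libraries, against 38.8%, 35.0% and 33.5% in sham libraries. The peak's share was lower in every nano-TiO2 library than in any sham library, and the share of each of the 6 stretches from 1101 on was higher. Shares of a gene add up to its whole signal, so a lower peak goes with higher shares elsewhere, and these are not separate results. The 10 windows with the highest mean held 27.9%, 30.8% and 30.2% in nano-TiO2 libraries, against 40.8%, 37.1% and 36.0% in sham libraries. That is a difference of -8.32 ± 1.66 percentage points (SE, n = 3 per group), with an unadjusted p of 0.0019 and an adjusted p of 0.17 (limma). In the first 25% of its windows Pln had 29.0%, 33.9% and 31.0% in nano-TiO2 libraries, against 42.8%, 38.6% and 37.8% in sham libraries (difference -8.41, adjusted p = 0.22, limma). In the last 25% it had 16.7%, 13.7% and 16.8% in nano-TiO2 libraries, against 10.0%, 12.5% and 12.5% in sham libraries (4.05, adjusted p = 0.34, limma). Neither the summed level nor these shares of Pln passed the test across genes.

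Cacna1c had its main peak in windows that start between 4390 and 6565, with 34.5% in nano-TiO2 libraries and 42.0% in sham libraries. Its first 25% of windows held 37.8%, 34.0% and 41.2% in nano-TiO2 libraries, against 30.2%, 29.3% and 25.9% in sham libraries (difference 9.21, adjusted p = 0.24, limma). Its 10 highest windows held 10.3%, 9.14% and 9.64% in nano-TiO2 libraries, against 13.1%, 12.6% and 15.1% in sham libraries (difference -3.92, adjusted p = 0.28, limma). In the last 25% of its windows Ryr2 had 7.17%, 9.71% and 8.46% in nano-TiO2 libraries, against 12.6%, 14.1% and 11.9% in sham libraries (difference -4.40, adjusted p = 0.22, limma). The groups overlap in the main peak of Cacna1c and do not overlap in the other 3 of these shares, none of which passed.

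Counted over the 7 members, 0 passed for the last 25% of windows, the first 25% or the top 10 windows, while 0.0647%, 0.00925% and 0.0185% of the 10815 genes tested did. At an unadjusted p under 0.05 there were 2 members for each share: Ryr2 and Pln for the last windows, and Pln and Cacna1c for the first windows and the top windows. Over all genes tested 10.8% had such a p for the last windows, 11.1% for the first and 11.6% for the top windows. The groups of these members do not overlap, which held for 16.2%, 15.6% and 16.7% of all genes tested.

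**Figure D4:**
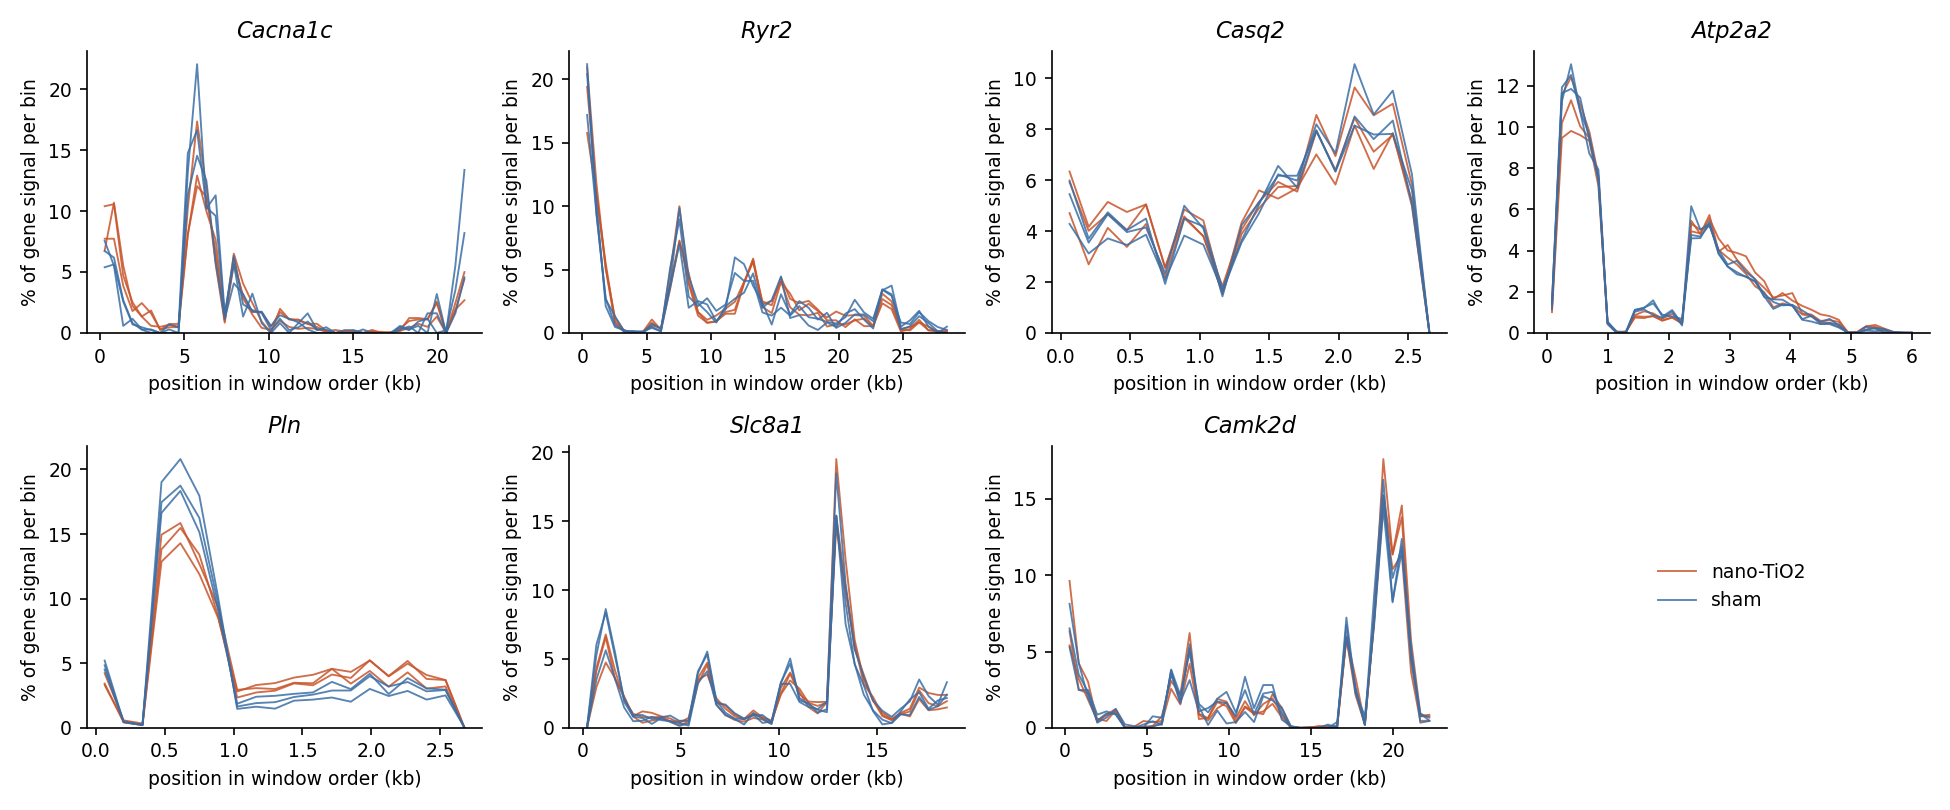
Share of each gene's normalized IP signal (percent) along its windows in table order (kb), in 20 equal bins for Pln and Casq2 and 40 for the other genes; each line is 1 library, 3 nano-TiO2 and 3 sham. The Pln peak between 0.5 and 1 kb is lower in all nano-TiO2 lines than in all sham lines and the stretch after it is higher, while in Slc8a1 and Casq2 the lines of both groups run together.

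A test of each window against the rest of its gene called 0 of the 557 members' windows with limma's diffSplice, where 0.0465% of all windows passed and 18 of the members' windows had an unadjusted p under 0.05, as had 3.26% of all windows. Of those 18, 0 were among the 95 tested windows of Pln. When windows with a mean of at least 1 were admitted, 2 windows of Ryr2 passed, as did 0.0641% of all windows. The window at 25666 had 0 reads in each nano-TiO2 library, against 1.80, 4.38 and 1.35 normalized reads in sham libraries. The one at 12141 had 1.12, 0 and 0.805 normalized reads in nano-TiO2 libraries, against 2.70, 4.38 and 6.76 in sham libraries. Both rest on a handful of reads.

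Because Pln inhibits the pump that Atp2a2 encodes, the ratio of their summed levels was computed; it was chosen after the values had been seen. In IP level it was 0.653, 0.894 and 0.897 in nano-TiO2 libraries, against 0.496, 0.443 and 0.289 in sham libraries. The means were 0.815 ± 0.140 in nano-TiO2 and 0.409 ± 0.108 in sham libraries (SD, n = 3 each), a 1.99-fold difference with an exact two-sided permutation p of 0.1, the smallest possible. This ratio does not depend on how libraries are scaled. With the trend on the number of windows removed, the log2 difference in IP level was 0.44 for Atp2a2 and -0.16 for Pln.

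In adjusted level the ratio was 0.611, 0.626 and 0.591 in nano-TiO2 libraries, against 0.555, 0.499 and 0.530 in sham libraries. The means were 0.609 ± 0.018 in nano-TiO2 and 0.528 ± 0.028 in sham libraries (SD, n = 3 each), 1.15-fold, with the same exact permutation p of 0.1. Groups do not overlap in either table, and the difference was smaller after adjustment. For Atp2a2 over Casq2 in IP level the groups overlap, with 0.877, 1.27 and 1.16 in nano-TiO2 libraries and 0.946, 0.804 and 0.467 in sham libraries (exact permutation p = 0.2).

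**Figure D5:**
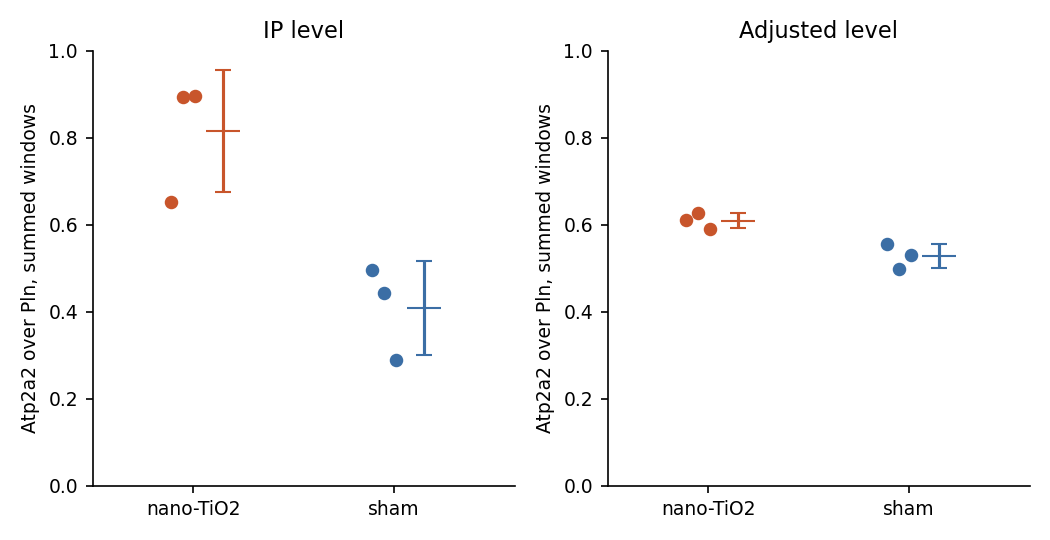
Summed level of Atp2a2 over that of Pln in IP level (left) and adjusted level (right), with 1 point per library and mean ± SD beside them (n = 3 each). Nano-TiO2 libraries lie at 0.653 to 0.897 and sham libraries at 0.289 to 0.496 in IP level, while in adjusted level nano-TiO2 libraries lie at 0.591 to 0.626 and sham libraries at 0.499 to 0.555.

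How alike the 7 genes ran over the 6 libraries is given as a description, since libraries within a group share a treatment. The Pearson correlation with the members' mean log2 IP level was 0.98 for Ryr2 and Slc8a1, 0.96 for Camk2d, 0.95 for Atp2a2, 0.92 for Cacna1c, 0.73 for Casq2 and 0.37 for Pln. Outside the members, the genes closest to that mean were ENSMUSG00000015568 and ENSMUSG00000027014, both at 0.999, with log2 changes of 1.40 and 0.92. Of the 18559 genes compared, 708 exceeded 0.95. Each member is part of the mean it is set against, which raises its own value.

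Of the 7 genes, 6 have an entry in RefSeq's promoter table (build GRCm38.p6), and Atp2a2 does not. The 250 bases before each start were searched on both strands for 5 motifs. A match is to a spelling at any position in these bases, so it is not shown to be a working element. Over all 32851 promoters in the table, 12.4% hold TATAAA, the spelling used for the TATA box. The MCAT element, spelled CATTCC, is held by 12.6% and the GATA motif, spelled AGATAA, by 9.99%. A CArG box is held by 1.47% and a MEF2 site by 0.508%. Slc8a1 and Pln hold a match to these spellings, of which that of the MEF2 site is narrow, with C as its first and G as its last base. A wider one, tried later, with either pyrimidine first and either purine last, is held by 2.92% of all promoters and, among the 6 genes, by Casq2. The Slc8a1 and Pln sequences are shown because one gene rose in IP level and the other did not pass the test. The stretch of Slc8a1 is chr17:81738388-81738637 on the minus strand, with AGATAA 68 to 63 bases before the start. That of Pln is chr10:53337436-53337685 on the plus strand, with TATAAA 219 to 214 bases and the GATA match, on the other strand, 183 to 178 bases before the start. Both are written 5′ to 3′ with the matches in capitals.
Slc8a1: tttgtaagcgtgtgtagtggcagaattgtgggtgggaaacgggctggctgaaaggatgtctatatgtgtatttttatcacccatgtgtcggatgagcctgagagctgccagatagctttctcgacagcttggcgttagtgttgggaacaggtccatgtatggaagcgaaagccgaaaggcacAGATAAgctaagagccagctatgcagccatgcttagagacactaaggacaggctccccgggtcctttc
Pln: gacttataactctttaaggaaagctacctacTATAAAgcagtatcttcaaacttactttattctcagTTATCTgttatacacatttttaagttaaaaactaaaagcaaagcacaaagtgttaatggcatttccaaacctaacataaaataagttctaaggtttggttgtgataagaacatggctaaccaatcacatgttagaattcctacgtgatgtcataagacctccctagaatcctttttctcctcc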

How the data were processed

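RNA was immunoprecipitated with a polyclonal anti-m6A antibody from 6 pooled fetal heart samples, 3 nano-TiO2 and 3 sham, grouped and numbered by their titles. Per the labels' protocols, RNA was fragmented to about 250 to 350 nucleotides. Input libraries were not analysed here. The submitters' processing notes name the tools HISAT2 (2.2.1), Salmon (1.5.2) and DESeq2 (1.34.0) with the genome build GRCm39, but not what each did. The counting of windows is described nowhere in the sources used.

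The authors deposited a normalized table of signal per window. Its values were checked: 100% were whole multiples of 1 step per library (tolerance 0.0001), which is what reads over a library's size factor give. The authors also deposited an adjusted table, treated as a score. In 162014 pairs of gene and library it equalled the normalized table divided by 1 factor and rounded, with 0 exceptions. A filtered table, the same as the normalized one, was not used.

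The members, gene lists and tests were chosen with earlier results of these data known. Windows were summed per gene. Features with a mean of 10 or more were tested two-sided with limma 3.58.1 under R 4.3.3, with a variance trend and no covariates, after log2 of the value plus a pseudocount of 1. P-values were adjusted by Benjamini-Hochberg over everything tested, at 0.05. Fold changes are on that log scale, which understates changes of low genes. The factor was tested on its log2 in genes where it could be had to within a relative width of 0.2. Shares were tested in percent in genes with a mean of 100 or more and 40 or more windows, and windows within genes with diffSplice. Single values per library were compared with exact permutation tests (SciPy 1.17.1). Count tests on recovered reads with edgeR 4.0.16 and DESeq2 1.42.0 were alternatives, as were other scalings, filters, a correction for gene length, quality weights, a replicate block and leaving out each library. The number of libraries, 3 per group, limits precision, and read counts include PCR copies. The scripts were tested on simulated data. Named genes were the 7 members and the 2 genes most correlated with their mean.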

Additional observations from a re-analysis of the deposited data

How the results depend on the processing

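The 5 members called higher in IP level were still 5 when each library was left out in turn, where 3175 to 4062 of 18566 genes were higher. They were also 5 with a pseudocount of 10 (4471 of 18566 genes higher), without the filter (4415 of 33538) and at a mean of at least 50 (3914 of 14220). Tests with edgeR and DESeq2 on recovered reads also called 5, but their share over all genes was not recorded. Equal totals and quality weights called 6, with Casq2 added, while 43.2% and 31.9% of all genes were higher, against 24.0% with the settings reported. The median of windows, which Cacna1c lacks, called 4, again without a recorded share over all genes. Removal of the length trend left 0 of 7, with Slc8a1 at -0.088 and Cacna1c at -0.082. Pln had the opposite sign with equal totals (0.39), equal totals outside the 4 genes with the most reads (0.17), quantile normalization (0.41), quality weights (0.12), the median of windows (0.40), without nano-TiO2 replicate 2 (0.16) and without sham replicate 3 (0.15), and its range when a library was left out was -0.33 to 0.16. In adjusted level Pln was -0.083 with TMM, 4 members passed with quality weights (22.5% of all genes were higher), and 0 to 2 passed when a library was left out. The 2 passed without sham replicate 2, where 8.32% of all genes were higher. In the factor, 0 to 5 members passed when a library was left out, and the share over all genes was not recorded. Casq2 was then -0.25 without nano-TiO2 replicate 1, -0.079 without nano-TiO2 replicate 3, -0.19 without sham replicate 1 and -0.15 without sham replicate 2, and Pln was 0.10 without nano-TiO2 replicate 2 and 0.086 without sham replicate 3, within a range of -0.39 to 0.10. The members' windows called in IP level numbered 66 at a mean of at least 50 and 33 to 178 when a library was left out. The share of all windows called in these settings was not recorded. In adjusted level 1 bin of 10 windows passed, and within genes 2 windows passed at a mean of at least 1. The difference in RPM was 1201, and 571 on the deposited scaling brought to the same mean. The cause of these changes was not tested.

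Equal replicate numbers were not taken as pairs in the main tests. Deviations from the group means correlated at -0.37, 0.18 and 0.024 for same-numbered libraries, and at -0.56 to 0.52 for libraries with different numbers. With 3 libraries per group such values cannot settle whether the numbers mark pairs. With the replicate number as a block, 5 members were still called in IP level, where 4191 of 18566 genes were higher and 2224 lower. In the factor 0 members were called with the block, against 4 without it. The 3 ratios, whose alternatives were added after the data had been seen, kept their direction when each library was left out. Depth limits Cacna1c most, with 344 reads in its lowest library.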
